A study of Danio rerio with 14 samples.

Results

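The genes described here encode the nuclear subunits of the oxidative phosphorylation system, the 5 protein complexes of the inner mitochondrial membrane. The set was chosen with earlier results of these data known, and its members were then taken by name. A probe belonged to the set when the symbol of its transcript began with nduf followed by a, b, c, s or v and a digit (complex I), with sdha to sdhd (complex II), with uqcr (complex III), with cox4 to cox8 (complex IV) or with atp5 (complex V). This gave 84 genes, read by 148 probes, of 13373 named genes and 43603 probes on the array. Complex I had 36 of these genes, complex II 8, complex III 7, complex IV 15 and complex V 18. A further 15 of the 99 matching symbols in the gene table had no probe matched here, among them cox4i1l, cox5ab, cox8a, ndufb3 and uqcr10. Of the 84 genes, 5 are by name assembly factors (sdhaf2, sdhaf3, sdhaf4) or inhibitors of the ATP synthase (atp5if1a, atp5if1b). Both ndufa4 genes are counted in complex I after their name, although the mammalian protein belongs to complex IV. No probe was matched to a subunit encoded in mitochondrial DNA, so every value below is of a nuclear gene.

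Complexes I and II pass electrons from NADH and succinate to coenzyme Q, complex III passes them on to cytochrome c, and complex IV hands them to oxygen. Complexes I, III and IV pump protons across the membrane as they do so, and complex V, the ATP synthase, lets the protons flow back through a turning rotor to make ATP. The system is densest in heart and skeletal muscle, where several subunits of complex IV exist as tissue-specific isoforms in mammals.

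Whole larvae of the wild type zebrafish strain AB were compared after exposure to effluent from the secondary stage of a Tucson plant that treats wastewater. Embryos entered the wells 3 h after fertilisation, 25 to 30 in 4 mL at 28 °C, and were collected at the age of 5 days, with media renewed every 24 h. The effluent had been reconstituted in E3 medium, the saline used for zebrafish embryos, as strong as the original (1x, 5 arrays) or 0.5x as strong (5 arrays), with at most 0.05% DMSO, and the 4 control arrays came from larvae in E3 medium with 0.05% DMSO. The labels do not say whether a replicate is 1 well or several, or whether wells shared a clutch, so the p-values measure the spread between these samples, which may be technical. In RNA of whole larvae, fewer cells of a type and less RNA per cell cannot be told apart.

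The arrays lay on 4 slides scanned on 2 days, slides 1 and 2 on day 1 and slides 3 and 4 on day 2. A difference between the days therefore cannot be told apart from one between slides. Slide 1 held only control and 1x arrays, and slide 4 only control and 0.5x arrays. Scan day 1 held control replicates 1 and 2, 1x replicates 1 to 3 and 0.5x replicate 1, and scan day 2 held the other 8 arrays. Median processed signals of 132 to 255 and between 85.4% and 90.9% of probes well above background were found on the 14 arrays. All 148 probes of the set were well above background on every array, and none was saturated. Control replicates 1 and 2 stood apart from the other arrays: the median of 3 heart markers lay 2.23 and 0.82 log2 units below its mean there, against values of 0.05 to 0.58 above it on the other 12 arrays, and the median of 3 liver markers lay at -2.09 and -1.14, against -0.01 to 0.59. The median deviation of all kept probes from their own means was 0.18 and 0.13 on control replicates 1 and 2, against -0.06 to 0.04 on the other 12 arrays. Results that rest on these 2 control arrays are therefore given with and without them.

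Levels are log2 processed signals less the 75th percentile of the array, differences are log2 fold changes with standard errors (SE), and every adjusted p of a gene is from limma with Benjamini-Hochberg adjustment over 38802 probes, with 0.05 as the threshold. At 1x, 6 of the 84 genes rose and 4 fell against control, which is 11.9% of them. Over all kept probes 28.7% passed the same test, 9.88% higher and 18.8% lower, so the share of the set that changed was below that of the array as a whole. Each gene was read from its kept probe with the highest mean. The median level of these probes was at percentile 97.2 of all kept probes, and no share among probes of like level was taken. The median fold change of the 84 genes was 0.02, that of all probes -0.09, and 65 of the 84 genes lay within 0.25 of 0. By complex the medians were 0.01 (I), -0.07 (II), 0.17 (III), 0.01 (IV) and 0.08 (V), and the median SE of a gene was 0.14. Without its 3 assembly factors the median of complex II was 0.01. Those 3 genes had a median of -0.15, and none of them passed the threshold. Complex I had 3 genes higher and 2 lower, complex II 1 lower, complex III none, complex IV 1 lower and complex V 3 higher. The groups did not overlap for 7 of the 84 genes (3 higher, 4 lower), while 20.6% of all kept probes had no overlap, 6.83% higher and 13.8% lower. The split depended on the batch, the scaling and the probe. With the slide as a block 15 genes were higher and 4 lower, with the scan day as a block 14 and 4, and after quantile normalization 10 and 3. By the mean of a gene's probes 10 were higher and 4 lower, and by its probe with the lowest mean also 10 and 4. Over all 38802 kept probes, 3832 were higher and 7314 lower with no block. These became 5275 and 8864 with the slide as a block, 5643 and 9321 with the scan day, and 4910 and 5955 after quantile normalization. With the probes of each gene averaged, 2500 of 26950 values were higher and 5514 lower.

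**Figure D1:**
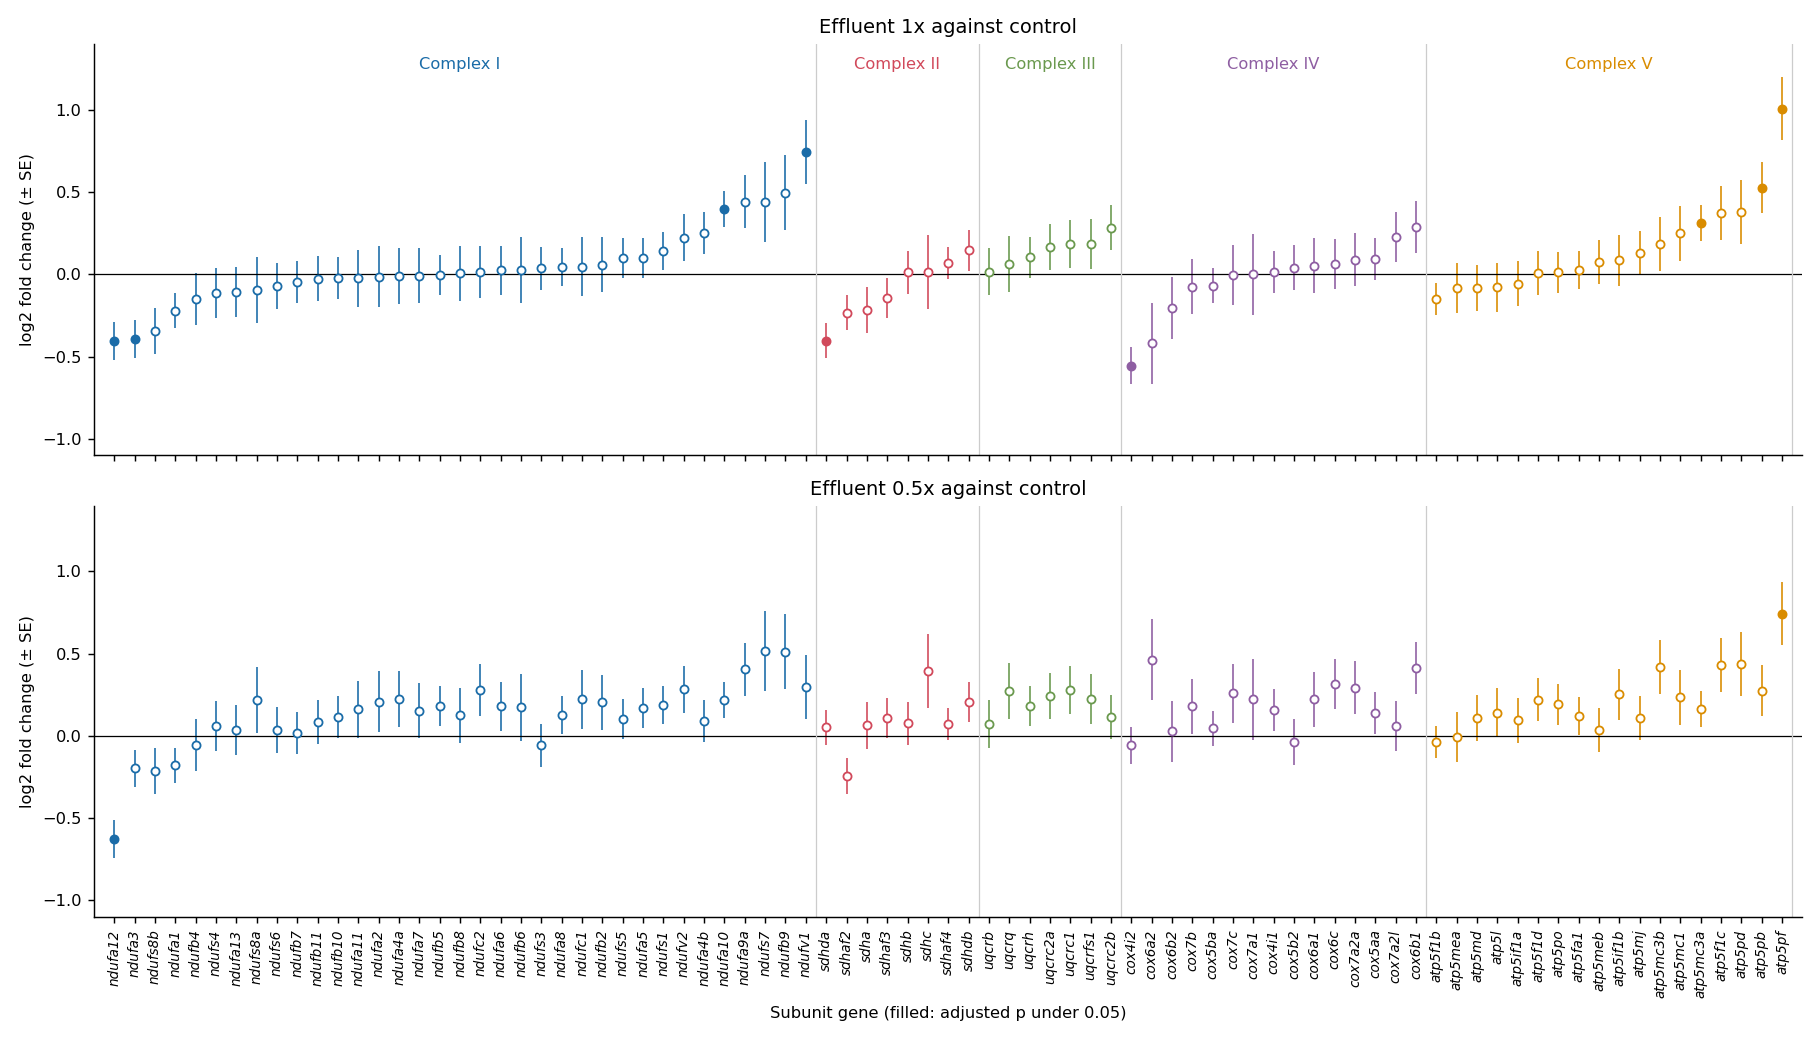
Log2 fold change (vertical axis, points with SE bars) of 83 of the subunit genes against control, at 1x (upper panel) and at 0.5x (lower panel), in the same order and coloured by complex, with filled points for an adjusted p under 0.05. At 1x atp5pf reached 1.01 and cox4i2 -0.56 while the complex medians lay between -0.07 and 0.17, and at 0.5x most genes lay above 0 with 2 past the threshold.

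In complex I, the gene ndufv1 encodes the subunit that binds NADH and its flavin. Its level was 1.76, 2.02, 2.95 and 2.09 on the 4 control arrays, 3.15, 2.82, 2.89, 3.11 and 2.79 at 1x, and 2.65, 2.50, 2.67, 2.50 and 2.20 at 0.5x. At 1x 3 of the 5 arrays lay below control replicate 3, so the groups overlapped through that array, and the fold change was 0.75 ± 0.19 (adjusted p = 0.0143). All 3 probes of ndufv1 passed the threshold, with fold changes of 0.75 to 1.02. The accessory subunit ndufa10 rose from 3.82 to 4.04 in controls to between 4.14 and 4.58 at 1x, without overlap (0.40 ± 0.11, adjusted p = 0.0181). The ndufv1 and ndufa10 calls were lost without control replicate 1 (adjusted p = 0.0511 and 0.0574). With control replicates 1 and 2 both left out, the fold changes were 0.43 and 0.32, with adjusted p of 0.161 and 0.113.

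Both complex I genes that fell at 1x are accessory subunits. Their probes were at percentiles 20.3 (ndufa12, the lowest of the set) and 59.3 (ndufa3) of level, against a median of 97.2 for the set. For ndufa12, a subunit that in human cells is added late in assembly, the 4 control arrays read -3.61, -3.72, -4.06 and -3.83, the 1x arrays -4.17, -4.15, -4.11, -4.39 and -4.25, and the 0.5x arrays -4.68, -4.41, -4.29, -4.32 and -4.47. Every treated array was below every control array, and ndufa12 fell by 0.41 ± 0.12 at 1x (adjusted p = 0.0205) and by 0.63 ± 0.12 at 0.5x (adjusted p = 0.00651). The small membrane-arm subunit ndufa3 was at -1.09 to -0.80 in controls and at -1.50 to -1.21 at 1x, again without overlap (-0.39 ± 0.11, adjusted p = 0.0220). Without control replicates 1 and 2 the 1x fold changes were -0.27 for ndufa12 and -0.39 for ndufa3, with adjusted p of 0.168 and 0.0771, and the 0.5x fold change of ndufa12 was -0.49 (adjusted p = 0.0893). At 1x the ndufa12 call was also lost without control replicate 1 or 2 alone, and that of ndufa3 without control replicate 1 or without 1x replicate 2 or 3. The iron-sulfur subunit ndufs1 did not pass the test on the probe used for it (0.14 ± 0.12, adjusted p = 0.372), with levels of 4.83 to 5.21 in controls and 4.99 to 5.37 at 1x.

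Complex II, succinate dehydrogenase, had 1 gene past the threshold. The membrane anchor sdhda fell to -2.34, -2.30, -2.30, -2.22 and -2.19 at 1x from -1.66, -1.96, -2.00 and -1.85 in controls, while the 0.5x arrays read -1.99, -1.77, -1.87, -1.58 and -1.87. The 1x arrays lay below all others (-0.40 ± 0.11, adjusted p = 0.0145), and both probes of sdhda passed the threshold. The call held when any single array was left out, with adjusted p up to 0.0490, and was lost without control replicates 1 and 2 together (-0.35, adjusted p = 0.0729). The flavoprotein sdha and the iron-sulfur protein sdhb, which oxidise succinate, had fold changes of -0.22 ± 0.14 and 0.01 ± 0.13 (adjusted p = 0.254 and 0.951). Without control replicates 1 and 2, sdha passed the threshold as lower (-0.47, adjusted p = 0.0467).

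No gene of complex III passed the threshold at 1x on the probe used for it, and at an unadjusted p under 0.05 the number was also 0. All 7 genes had fold changes above 0, from 0.02 to 0.28. The core protein uqcrc1 was at 3.27 to 3.77 in controls and 3.48 to 4.01 at 1x (0.18 ± 0.15, adjusted p = 0.358). The Rieske iron-sulfur protein uqcrfs1, which passes electrons towards cytochrome c, was at 5.20 to 5.70 in controls and 5.46 to 5.90 at 1x (0.19 ± 0.15, adjusted p = 0.366). In both genes the ranges of the groups overlapped.

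In complex IV, cytochrome c oxidase, the gene that fell at 1x encodes the second isoform of subunit 4. In mammals this isoform, COX4I2, is found mainly in lung and oxygen-sensing cells and is linked to low oxygen. The level of cox4i2 was 1.74, 1.91, 1.79 and 2.16 in controls, 1.35, 1.46, 1.44, 1.21 and 1.28 at 1x, and 1.77, 2.00, 1.74, 2.00 and 1.71 at 0.5x. All 5 arrays at 1x lay below all 9 others, whereas the 0.5x arrays lay within the range of the controls or just under it. The fold change at 1x was -0.56 ± 0.11 (adjusted p = 0.00475), a level 1.47 times lower than in controls, and the other probe of the gene fell by 0.69. On scan day 1 it was -0.41 and on scan day 2 it was -0.73. The call held under every alternative setting run, including without control replicates 1 and 2 (-0.63), with adjusted p between 0.00153 and 0.0490. The widely expressed isoform cox4i1 was at 6.73 to 7.36 in controls and 6.94 to 7.17 at 1x, a fold change of 0.01 ± 0.13 (adjusted p = 0.948). The structural subunit cox5aa had a fold change of 0.09 ± 0.13 (adjusted p = 0.613).

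Complex V held the subunit gene with the largest fold change of the 84 at 1x. The gene atp5pf encodes coupling factor 6, a part of the peripheral stalk that keeps the head of the ATP synthase from turning with the rotor. It was at 0.49, -0.11, 0.81 and 0.74 in controls, at 1.39, 1.42, 1.60, 1.45 and 1.59 at 1x, and at 0.75, 1.16, 1.63, 1.37 and 1.23 at 0.5x. The 1x arrays were above all 4 controls, and at 0.5x 4 of the 5 arrays were. The level was 2.01 times that of controls at 1x (log2 fold change 1.01 ± 0.19, adjusted p = 0.00343) and 1.67 times at 0.5x (0.74 ± 0.19, adjusted p = 0.0292). At 1x the call held under every alternative setting run, with adjusted p between 0.000791 and 0.0456. The gene is read by 1 probe, so these settings could not compare probes. The fold change was 1.28 on day 1, 0.74 on day 2 and 0.71 without control replicates 1 and 2. At 0.5x it was 0.56 and 0.57 within the days, and the call was lost without control replicates 1 and 2 (0.45, adjusted p = 0.272) and on leaving out control replicate 1, control replicate 2 or any of 0.5x replicates 2 to 4 alone.

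A second stalk gene, atp5pb, was at 3.49 and 3.61 on control replicates 1 and 2, at 4.26 and 4.25 on control replicates 3 and 4, and at 4.26 to 4.51 at 1x. Its fold change of 0.53 ± 0.16 (adjusted p = 0.0232) was 0.17 without the first pair of controls (adjusted p = 0.279), and the call was also lost without control replicate 1, control replicate 2 or 1x replicate 3 alone. The rotor subunit atp5mc3a rose by 0.31 ± 0.11 at 1x (adjusted p = 0.0435), and its call was lost on leaving out any of 10 of the 14 arrays. The catalytic head subunits atp5fa1 and atp5f1b had fold changes of 0.02 ± 0.12 and -0.15 ± 0.10 on the probes used for them (adjusted p = 0.890 and 0.258). The inhibitor genes atp5if1a and atp5if1b stood at -0.06 and 0.09, and neither passed the threshold.

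**Figure D2:**
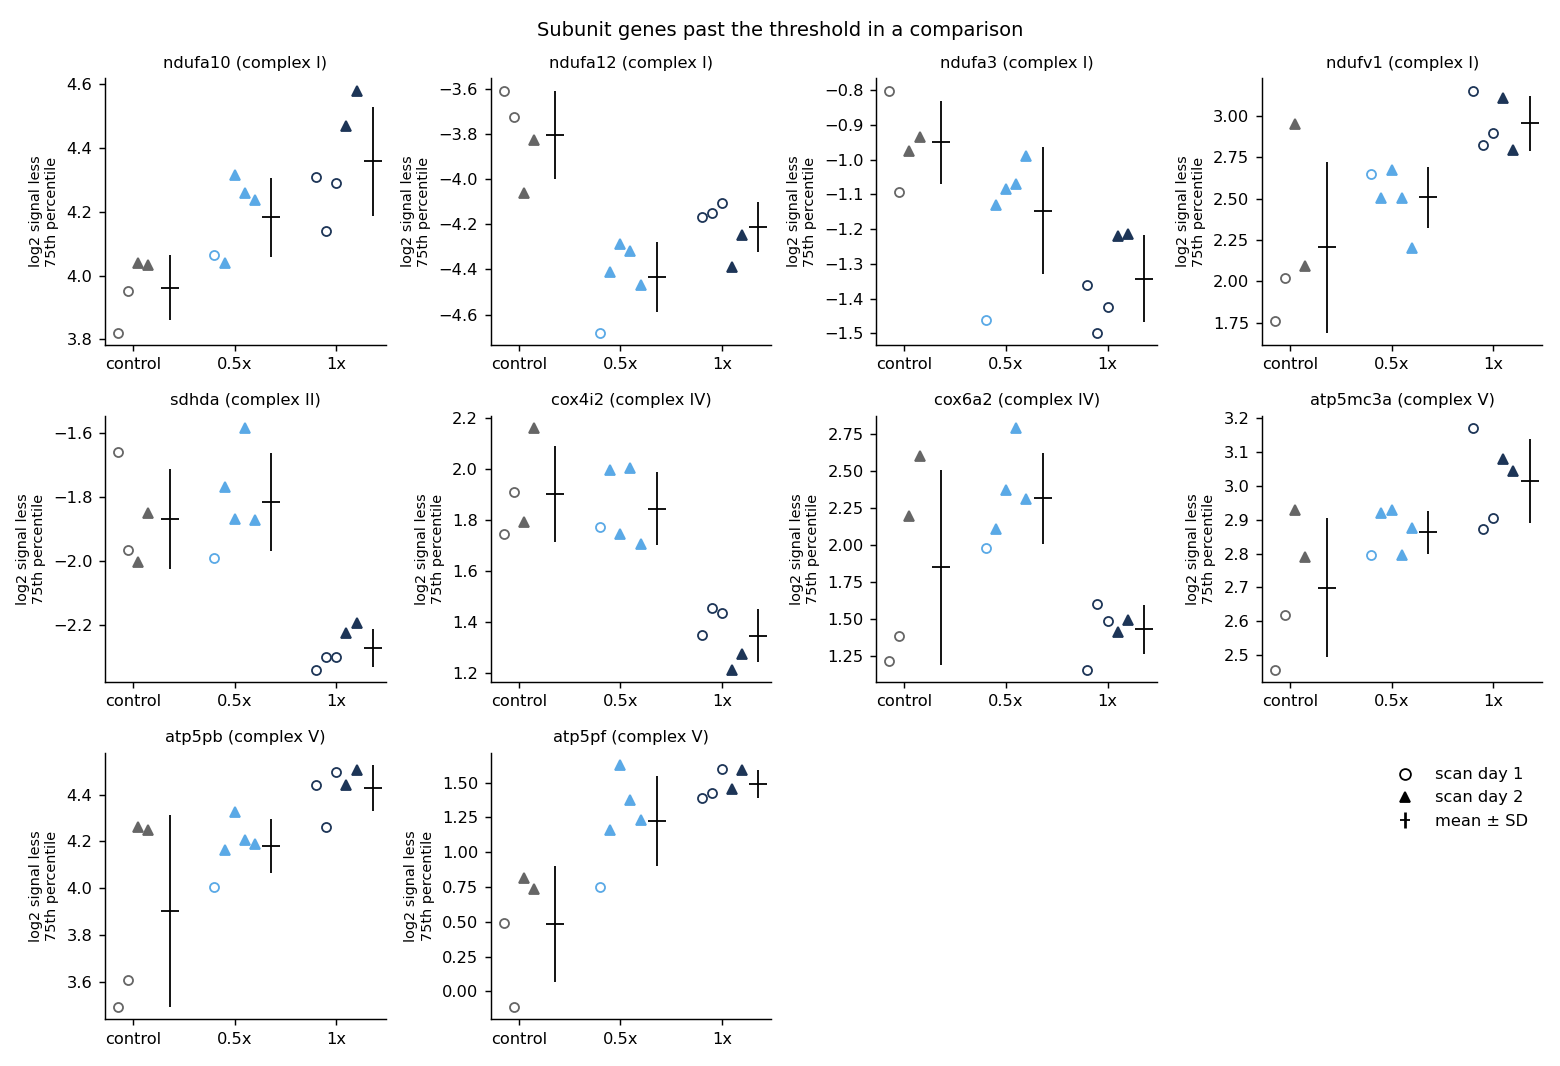
Level (log2 signal less the 75th percentile of the array) of 10 subunit genes past the threshold in any of the 3 comparisons, 1 point per array for control (4), 0.5x (5) and 1x (5), with open circles for scan day 1, filled triangles for scan day 2 and bars for the mean ± SD. The 1x arrays lie apart from both other groups in cox4i2 and sdhda, and control replicates 1 and 2 lie lowest in ndufv1, atp5pb and atp5mc3a.

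At 0.5x, atp5pf rose and ndufa12 fell, and no other gene of the set passed the threshold. These 2 genes are 2.38% of the 84, against 9.25% of all kept probes (3.53% higher, 5.71% lower), and 2 genes had groups without overlap (ndufa12 and, not past the threshold, ndufa10), against 10.7% of probes (3.87% higher, 6.88% lower). Fold changes were above 0 for 73 of the 84 genes, with a median of 0.17 beside -0.11 for all probes. The medians of the complexes were 0.17 (I), 0.07 (II), 0.23 (III), 0.18 (IV) and 0.18 (V). Within the scan days the median of the 84 genes was 0.05 on day 1 and 0.03 on day 2, and it was -0.03 without control replicates 1 and 2, when no gene of the set and 1.56% of all probes passed the threshold. Fitted within day 1 alone, where 0.5x has 1 array, 8 genes of the set passed against 30% of probes, and within day 2 alone none did against 2.14%. Some subunits were named whatever their values. Their 0.5x fold changes were 0.19 (ndufs1), 0.30 (ndufv1), 0.06 (sdha), 0.08 (sdhb), 0.28 (uqcrc1), 0.23 (uqcrfs1), 0.16 (cox4i1), 0.14 (cox5aa), 0.12 (atp5fa1) and -0.04 (atp5f1b), none past the threshold. The 1x and 0.5x comparisons share their 4 control arrays, so their values stand side by side and are not independent.

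Between the concentrations, 3 genes were lower at 1x than at 0.5x and none was higher, 3.57% of the set against 4.07% of all kept probes (1.74% higher, 2.34% lower). The groups did not overlap for 4 of the 84 genes (3 lower, 1 higher), against 8.27% of probes (3.86% higher, 4.4% lower). For cox4i2 the difference was -0.50 ± 0.11 (adjusted p = 0.0182), and for sdhda it was -0.46 ± 0.10 (adjusted p = 0.0203). The remaining gene was cox6a2, whose mammalian counterpart is the heart and skeletal muscle isoform of subunit 6a. Its level was 1.16, 1.60, 1.49, 1.41 and 1.49 at 1x and 1.98, 2.11, 2.37, 2.79 and 2.31 at 0.5x. The 2 groups did not overlap (-0.88 ± 0.23, adjusted p = 0.0474). However, control replicates 1 and 2 read 1.22 and 1.39 and control replicates 3 and 4 read 2.20 and 2.60, so the controls spanned both. The other probe of cox6a2 stood at -0.66 and did not pass the threshold, whereas both probes of cox4i2 and both of sdhda passed it. Against control, cox6a2 was at -0.42 ± 0.25 at 1x (adjusted p = 0.211), and without control replicates 1 and 2 it passed the threshold as lower (-0.97, adjusted p = 0.0126). The cox4i2 difference lost its call without 0.5x replicate 2 or 4, that of sdhda without any of 5 arrays, and that of cox6a2 without any single 1x array or without 0.5x replicate 2, 3, 4 or 5. Without control replicates 1 and 2, which enter only the estimate of the spread here, 3 genes were lower, against 8.34% of probes. Within day 1 none of the 84 genes and 0% of probes passed, and within day 2 only cox6a2 did, against 2.65% of probes. With the slide as a block none of the 3 passed the threshold.

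Across the arrays the subunit genes of all complexes moved together with the scan day. Taken as the median deviation of the 84 genes from their own means, the 6 arrays of scan day 1 lay between -0.29 and -0.08 and the 8 arrays of day 2 between 0.03 and 0.23. The controls read -0.22, -0.29, 0.03 and 0.23, the 1x arrays -0.12, -0.19, -0.08, 0.03 and 0.18, and the 0.5x arrays -0.21, 0.06, 0.23, 0.17 and 0.15. The days did not overlap in complexes I, II, IV and V, and in complex III 1x replicate 1 of day 1 lay just above control replicate 3 of day 2. Within groups, 82 of the 84 genes were higher on day 2, by a median of 0.34, while 19418 of the 38802 kept probes were higher on day 2 and their median difference was 0.00. The exceptions were ndufa1 (-0.08) and ndufa12 (-0.05). The subunit probes had a median level at percentile 97.2 of all kept probes, and no probes of like level were compared between days. Whether the shift goes with the signal level or with the subunit genes was therefore not tested. Among the complexes the median difference between days was 0.32 (I), 0.24 (II), 0.36 (III), 0.37 (IV) and 0.34 (V). Each was larger in size than every complex median of an effluent comparison fitted to all arrays, with the assembly factors counted in. Without them the median of complex II between the concentrations was -0.28, and within day 1 that of complex III at 1x against control was 0.27. No test was made of the difference between days, which is also a difference between slides. Day 1 holds 2 of the 4 control arrays, 3 of the 5 at 1x and 1 of the 5 at 0.5x, so a comparison that ignores the day mixes it in differently for each group. After the group means were taken off, pairs of genes of 1 complex correlated across the 14 arrays at a median r of 0.75 (937 pairs) and pairs from different complexes at 0.75 (2549 pairs). Within single complexes the median r was 0.74 (I), 0.56 (II), 0.80 (III), 0.82 (IV) and 0.74 (V). It was lowest in complex II, where the assembly factors were counted in. These points share arrays and scan days.

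**Figure D3:**
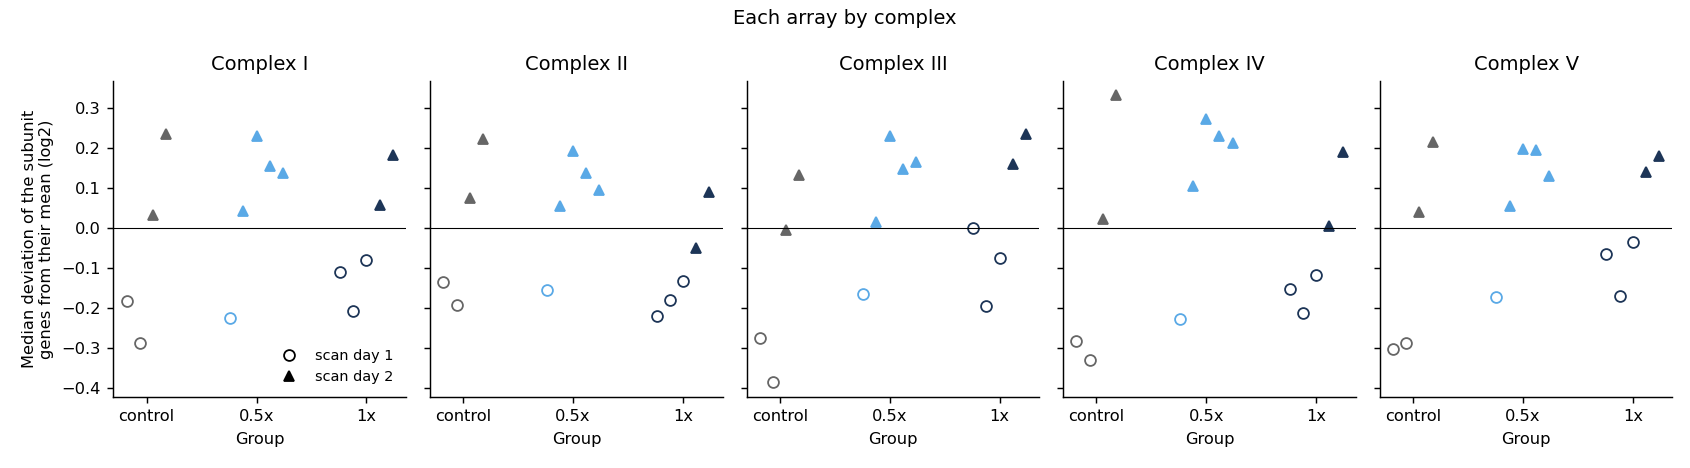
Median deviation (log2) of the subunit genes of each complex from their own means over 14 arrays, 1 point per array in the groups control, 0.5x and 1x, with open circles for scan day 1 and filled triangles for scan day 2. In complexes I, II, IV and V every circle lies below every triangle.

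The 1x effect itself also differed between the days for 8 of the 84 genes, against 15.7% of all kept probes (limma interaction term, adjusted over all probes). In all 8 the value of day 1 was above that of day 2. The 8 genes were singled out after their values were seen. They are ndufs7, a core iron-sulfur subunit (1.02 within day 1 and -0.11 within day 2), the accessory subunits ndufb9 (0.94 and 0.11) and ndufa9a (0.84 and 0.02), the stalk subunits atp5pb (0.85 and 0.22) and atp5pd (0.75 and 0.06), the rotor subunit atp5mc3b (0.55 and -0.17), cox7a2l, a factor for supercomplexes of complexes III and IV in mammals (0.52 and -0.05), and cox6a2 (0.11 and -0.94). For ndufs7 the levels were -0.02 and 0.29 on control replicates 1 and 2, 1.32 and 1.45 on control replicates 3 and 4, and 1.04 to 1.33 at 1x. The 1x arrays thus all lay above the first pair of controls and overlapped the second, with 1x replicates 1 and 5 just above control replicate 3 and every 1x array below control replicate 4. Fitted within day 1 alone, 22 of the 84 genes passed the threshold (17 higher, 5 lower), against 46.5% of all kept probes, and within day 2 alone 2 did (atp5pf and cox4i2), against 4.05%. Without control replicates 1 and 2, 4 of the 84 genes passed (atp5pf higher, cox4i2, cox6a2 and sdha lower), against 11% of probes, and the median of the set was -0.15.

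**Figure D4:**
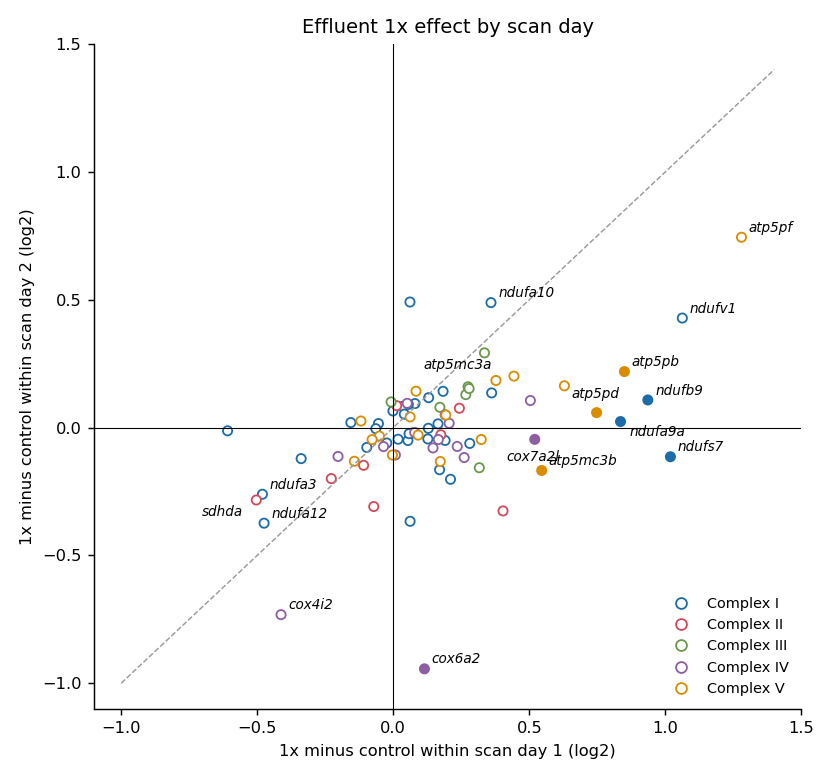
Difference of 1x and control within scan day 1 (horizontal axis) and within scan day 2 (vertical axis) for 83 subunit genes (log2), coloured by complex, with filled points where the difference between days passed the threshold and a dashed line where both days are equal. The 8 filled points lie below the line, while atp5pf (1.28 and 0.74) and cox4i2 (-0.41 and -0.73) keep their side of 0 on both days.

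Of the 84 genes, 44 had more than 1 probe, and the probe used above was the one with the highest mean. The others had 1 probe, among them atp5pf, ndufa10, ndufa12, ndufa3 and atp5mc3a, whose calls at 1x have no second probe beside them. Over all 148 probes, 20 were higher and 6 lower at 1x, 17.6% of them, against 28.7% of all kept probes (9.88% higher, 18.8% lower). The probes of 13 genes disagreed in sign, and 7 genes had a probe called higher although the probe used for the gene was not: atp5f1b, atp5fa1, ndufa9a, ndufs1, sdha, uqcrc1 and uqcrfs1. The catalytic subunit atp5f1b had 5 probes, with fold changes of -0.15 (the probe used), 0.26, 0.62, 0.59 and 0.95. The last 3 passed the threshold (adjusted p = 0.0147 to 0.0215). The probe at 0.95 deviated from its mean by -1.40 and -0.90 on control replicates 1 and 2, by 0.26 and -0.36 on control replicates 3 and 4, and by 0.18 to 0.56 at 1x, so its 1x effect was 1.51 within day 1 and 0.37 within day 2. In atp5fa1, the other catalytic subunit, the 4 probes stood at 0.02, 0.44, 0.75 and -0.56, with those at 0.44 and 0.75 called. For ndufs1 the second probe rose by 0.75 (adjusted p = 0.0351), with 1.09 within day 1 and 0.38 within day 2. In uqcrc1 both other probes rose (0.57 and 0.63, with 0.91 and 0.95 within day 1 and 0.20 and 0.26 within day 2), and in uqcrfs1 2 of the other 3 did (0.61 and 0.55). For sdha the probe used stood at -0.22 and the others at 0.39, which passed the threshold, and 0.56, which did not. No direction can therefore be given for atp5f1b, atp5fa1 or sdha at 1x. The stretch of transcript that each probe reads was not analysed here, and a part of splice forms or related transcripts in these differences was not tested. At 0.5x, none of the probes that were not used passed the threshold.

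**Figure D5:**
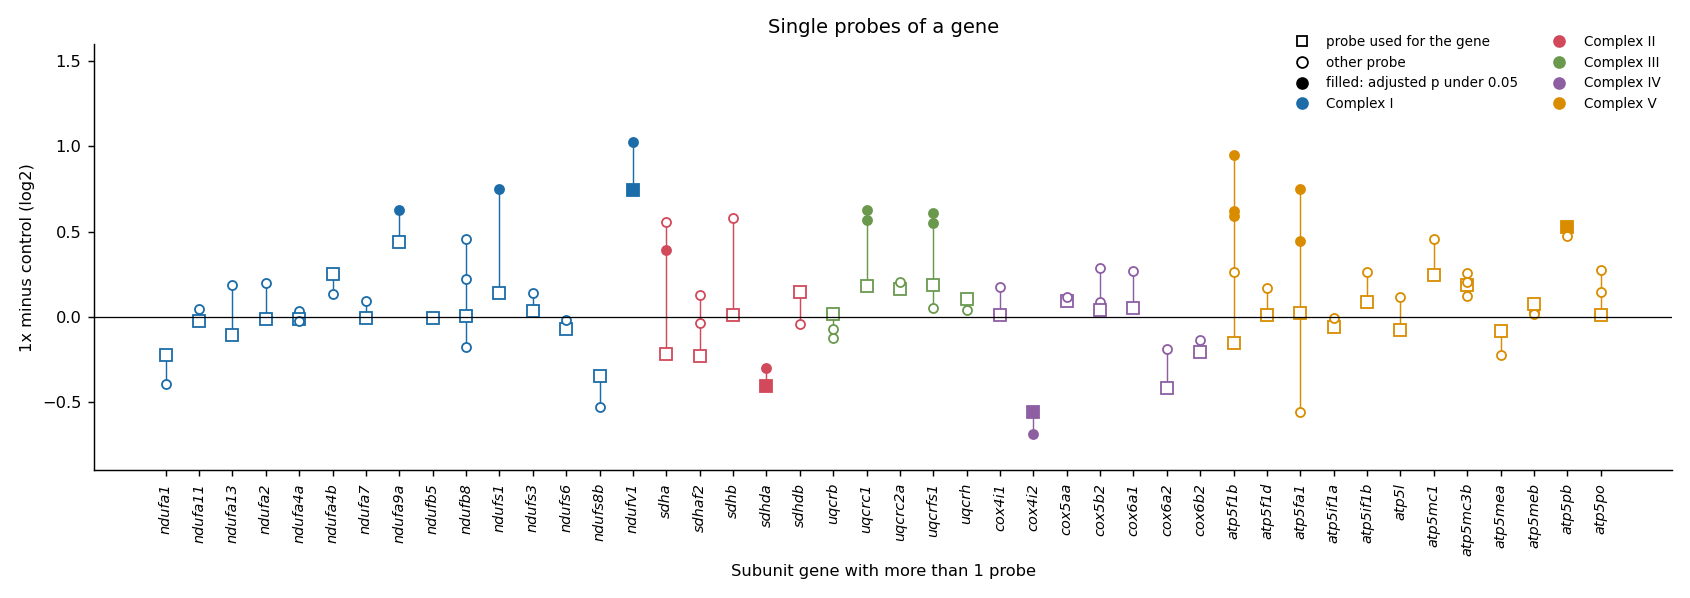
Log2 fold change at 1x against control of every probe of the 44 subunit genes with more than 1 probe, with a square for the probe used for the gene, circles for its other probes, filled marks for an adjusted p under 0.05 and colours for the complex. The probes of cox4i2, sdhda and ndufv1 lie together, whereas those of atp5f1b run from -0.15 to 0.95 and those of atp5fa1 from -0.56 to 0.75.

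Paired isoforms were compared within each array, as the deviation of a gene from its own mean less that of its partner, which leaves out any shift that both share. In the 13 pairs and 3 comparisons, exact two-sided permutation tests gave 39 p-values, none of which was under 0.05 after Benjamini-Hochberg adjustment. The lowest adjusted value was 0.0688, and with 5 against 4 arrays the exact test cannot go below 0.0159. For cox4i2 less cox4i1 the difference was 0.41, 0.42, 0.09 and 0.20 in controls and -0.18, -0.10, -0.14, -0.53 and -0.49 at 1x, with no overlap (mean change -0.57, exact permutation p = 0.0159). This change was -0.56 within day 1 and -0.65 within day 2. For sdhdb less sdhda the mean change at 1x was 0.55 (exact permutation p = 0.0159), 0.75 within day 1 and 0.36 within day 2, and against 0.5x it was 0.40 (exact permutation p = 0.00794). For cox6b2, in mammals the testis isoform of subunit 6b, less cox6b1 it was -0.49 (exact permutation p = 0.0159), and -0.71 and -0.22 within the days. For cox6a2 less cox6a1 the change between 1x and 0.5x was -0.71 (exact permutation p = 0.00794), and -0.63 and -0.85 within the days. The gene ndufa4b less ndufa4a changed by 0.26 at 1x (exact permutation p = 0.270), with -0.15 within day 1 and 0.69 within day 2.

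Other genes of the pathway were counted in lists, which like the subunit set were chosen with earlier results of these data known. Of 38 assembly factors, which build the complexes and are not part of them (3 sdhaf genes are in both lists), 4 rose and none fell at 1x, 10.5% beside the 28.7% of all probes. They are bcs1l (0.69 ± 0.17), which inserts the Rieske protein into complex III, cox11 (0.37 ± 0.10), which delivers copper to complex IV, foxred1 (0.34 ± 0.10), for complex I, and atpaf1 (0.32 ± 0.09), for the head of complex V. For bcs1l the level was -2.89, -2.62, -1.88 and -2.25 in controls and -1.50, -1.95, -1.74, -1.77 and -1.61 at 1x, with 1x replicate 2 below the highest control. Of 14 genes for cytochromes c and c1 and for coenzyme Q synthesis, 4 rose and 2 fell at 1x. They make up 42.9% of the list, beside the 28.7% of all probes (9.88% higher, 18.8% lower). Among them coq10b (0.61 ± 0.14), coq3 (0.58 ± 0.16) and coq4 (0.51 ± 0.11) were higher and coq8aa (-0.41 ± 0.13) and coq5 (-0.33 ± 0.09) lower. A list of 18 genes held the tricarboxylic acid cycle, which supplies NADH and succinate, and enzymes that bring pyruvate into it. Of the cycle, idh3a (0.39 ± 0.09) rose and fh (-0.26 ± 0.08) fell, and of pyruvate dehydrogenase, pdhb (0.27 ± 0.10) rose and pdha1b (-0.45 ± 0.15) fell. These are 22.2% of the list, beside the 28.7% of all probes. Of 65 genes of the mitochondrial ribosome, 5 rose, among them mrps9 (0.81 ± 0.16), mrpl13 (0.58), mrpl24 (0.50) and mrps31 (0.45 ± 0.10). In the same list 2 fell, mrpl20 (-0.66 ± 0.18) and mrps33 (-0.50 ± 0.14), and all its calls made up 10.8% beside 28.7%. Of 12 regulators of mitochondrial biogenesis, 1 rose (8.33%, beside 28.7%), tfam (0.32 ± 0.09), which packages and transcribes mitochondrial DNA. At 0.5x these lists had coq10b (0.59 ± 0.14), tfb1m (0.35 ± 0.10) and mrpl44 (0.42 ± 0.11) higher and none lower, and between the concentrations coq4 was higher (0.41 ± 0.11) and gabpb1 lower (-0.60 ± 0.12) at 1x. The 0.5x calls were 7.14%, 8.33% and 1.54% of their lists in that order, beside 9.25% of all kept probes. Between the concentrations the calls were 7.14% and 8.33% of theirs, beside 4.07%. The 0.5x calls were all lost without control replicates 1 and 2, and leaving out single arrays ended the call of tfb1m for 13 of the 14 arrays, of mrpl44 for 5 and of coq10b for 2 (control replicates 1 and 2). The coq4 difference between concentrations lost its call without any of 11 arrays, and both it and that of gabpb1 lost theirs with the slide as a block and within scan day 2. Both also failed within scan day 1, where 0.5x has 1 array, and in the authors' deposited matrix, where 0 of 36346 probes passed in this comparison. At 1x, within scan day 2 none of the genes named from these lists passed the threshold, and without control replicates 1 and 2 only coq4, mrps9 and mrps31 of them did. Single arrays decided further calls: coq3, coq5 and mrps33 lost theirs without control replicate 1, and mrpl13 without either of control replicates 1 and 2. The call of atpaf1 was lost without either of control replicates 1 and 2 or without 1x replicate 4, tfam without any of 4 arrays, coq8aa of 5, fh of 8, pdha1b of 9 and pdhb of 10.

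Outside the complexes, the uncoupling proteins ucp3 and ucp2 had larger fold changes at 0.5x than any of the 84 subunit genes. They are carriers of the inner membrane, and their family is known for a member that lets protons bypass the ATP synthase in mammalian brown fat. Of 11 nucleotide carriers, porins and uncoupling proteins, ucp3 and ucp2 rose at both concentrations and no gene fell against control, 18.2% of the list each time beside 28.7% of all kept probes at 1x and 9.25% at 0.5x. The level of ucp3 was 0.20, -0.04, 0.51 and 0.53 in controls, 1.17, 1.09, 1.26, 1.02 and 0.78 at 1x, and 2.22, 2.23, 2.20, 2.15 and 2.23 at 0.5x. The 3 groups did not overlap and the lower concentration had the higher level, with fold changes of 0.76 ± 0.13 at 1x (adjusted p = 0.00198), 1.90 ± 0.13 at 0.5x (adjusted p = 3.87e-06) and -1.14 ± 0.12 between them (adjusted p = 0.000225). The other gene, ucp2, was at 3.05, 3.06, 3.07 and 3.41 in controls, 3.97, 3.76, 4.02, 3.62 and 3.80 at 1x and 4.04, 4.04, 3.90, 3.96 and 4.18 at 0.5x, so that both treated groups lay above the controls. Its fold changes were 0.69 ± 0.11 and 0.88 ± 0.11 (adjusted p = 0.00175 and 0.000721). At 0.5x both genes passed the threshold within either scan day and without control replicates 1 and 2 (1.68 for ucp3 and 0.79 for ucp2). At 1x both failed it within scan day 2 (0.38 and 0.48). The ucp3 difference between concentrations failed it in the authors' deposited values, where 0 of 36346 probes passed in that comparison. It also failed it within scan day 1, where 0.5x has 1 array. These 2 failures therefore tell nothing about ucp3 in particular. In the same list slc25a6 was lower at 1x than at 0.5x (-0.51 ± 0.13, adjusted p = 0.0336), a call lost without any of 8 single arrays. Its levels were low, -5.22 to -4.81 at 1x and -4.88 to -4.32 at 0.5x, and the groups overlapped. The call was also lost after normexp correction, with the slide as a block, within scan day 2 and in the authors' deposited values with or without that block.

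Markers of several tissues and cell types also differed between groups or arrays. All 8 skeletal muscle markers were measured, and 5 of them fell at 1x (pvalb2 by 0.45, mylpfa by 0.43), beside 18.8% of all kept probes that fell and 9.88% that rose at 1x, with a median deviation of the list of 0.02 to 0.38 in controls, -0.20 to -0.01 at 1x and -0.20 to 0.09 at 0.5x. Of 3 heart markers measured of 4 listed, none passed the threshold, and the list ran from -2.23 to 0.31 in controls, 0.05 to 0.27 at 1x and 0.19 to 0.58 at 0.5x. Of 3 liver markers measured of 4 listed, apoa2 rose at 1x, and the list ran from -2.09 to 0.59, 0.17 to 0.24 and 0.16 to 0.55 in the same order. Of 4 neuron markers, 3 fell at 1x, and the list ran from -0.13 to 0.61, -0.31 to 0.02 and -0.26 to 0.15. The 3 exocrine pancreas markers measured had none past the threshold, with -1.92 and -1.05 on control replicates 1 and 2 and 0.60 and 0.89 on control replicates 3 and 4. Both erythrocyte markers measured (hbae1.1 and alas2) and 1 of 3 ionocyte markers (slc12a10.2) rose at 1x, and neither of the 2 lens markers measured passed the threshold. Of 4 enterocyte markers, 1 rose at 1x and 2 rose at 0.5x, where 3.53% of all kept probes rose, with -1.38 and -0.91 on control replicates 1 and 2. All measured markers of these lists were well above background on all 14 arrays. Their part in the values of the subunit genes was not tested.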

How the data were processed

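RNA of 14 samples of whole larvae was hybridised to 1-colour Agilent arrays labelled with Cy3. Spot intensity values (processed signals, already background-corrected) were deposited by the authors as scanner output of Agilent Feature Extraction 10.7.3.1, per the file headers. The authors' deposited log2 matrix served as an alternative. Except on slide 1, it matched log2 signals less the 75th percentile, centred within slides (r = 1.00). On slide 1 the match was looser, with r = 0.87 for control replicate 1 and 0.90 for 1x replicate 1. The deposited flags for background and outliers, set by the scanner software per the file headers, were used as filters. The flag for saturation was only counted, and 0 spots carried it.

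Here, processed signals were averaged over the spots of a probe, with 73 outlier spots left out. The averages were then put on the log2 scale, less the 75th percentile of each array. Of 43603 probes, 38802 were kept, each well above background on 4 or more arrays of some group. Names came from matching RefSeq transcript accessions to a RefSeq gene table of assembly GRCz12tu (25978 probes matched). Each gene was read from its kept probe with the highest mean.

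limma 3.58.1 (R 4.3.3) was fitted to the 14 arrays together with no block, p-values were adjusted over kept probes (Benjamini-Hochberg), and the procedure was tested on simulated data. The simulated noise was independent between probes and arrays, with no shift of slide or scan day, so that test does not cover such shifts. Isoform pairs had exact permutation tests (scipy 1.17.1). The members, lists and tests were chosen with earlier results of these data known. In each comparison and complex, up to 3 genes past the threshold with the largest change in each direction were named, besides a fixed list of subunits and isoform pairs. The alternatives were other scalings, filters and probes, the slide, scan day or replicate number as a block, fits within a scan day, and leaving out arrays. The number of arrays limits the precision. 1 gene of the set is counted but not reported here. A planned search for promoter motifs was not run, and no sequences were used here. The planned normexp correction on mean signals was run on median signals.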

Additional observations from a re-analysis of the deposited data

Results flagged for a closer look

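In 9 of 132 groups of a named gene, 1 array lay far from the others of its group (Dixon's rule at 95%, which chance alone meets in about 1 group in 20). Of these 9, 7 were 0.5x replicate 1, the only 0.5x array of scan day 1, and it was the lowest of its group each time. Its levels were 7.67 for atp5f1b (others 7.87 to 7.93), 4.78 for atp5if1b (5.18 to 5.33), 3.79 for atp5mea (4.34 to 4.52) and 5.85 for cox5aa (6.14 to 6.25). For cox6b2 it read 6.05 (6.72 to 6.82), for cox7a1 2.97 (3.66 to 3.84) and for cox7a2a 5.81 (6.24 to 6.39). The remaining arrays were 1x replicate 5 in atp5if1a, at 5.96 against 5.66 to 5.72, and 1x replicate 2 in atp5pb, at 4.26 against 4.44 to 4.51.

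The 1x effect differed between the scan days by limma's interaction term for atp5mc3b (day 1 less day 2, 0.71 ± 0.16, adjusted p = 0.0154), atp5pb (0.63 ± 0.15, adjusted p = 0.0198) and cox6a2 (1.06 ± 0.29, adjusted p = 0.0337). For atp5mc3b control replicates 1 and 2 read 6.16 and 6.18 and control replicates 3 and 4 read 6.79 and 7.03, while the 1x arrays lay between 6.63 and 6.86.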

How the results depend on the processing

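At 1x, atp5pf (read by 1 probe) and cox4i2 (2 probes) kept their direction and call under every alternative run. The medians of the set at 1x (0.02), at 0.5x and between the concentrations each changed sign under some alternatives. The 10 subunit genes called at 1x became 19 (15 higher, 4 lower) with the slide as a block, 19 with the authors' deposited matrix, 20 with that matrix and the slide as a block (an alternative chosen after seeing the data), 18 with the scan day as a block, 22 within day 1, 2 within day 2 and 4 without control replicates 1 and 2. Leaving out single arrays gave 3 (without control replicate 1) to 18 (without control replicate 4). Over all kept probes, 3832 were higher and 7314 lower at 1x in the fit of all arrays, and 4924 and 8555 of 36346 with the matrix. Without control replicate 1 the numbers were 2267 and 3671, and without control replicate 4 they were 4449 and 8545. The 2 genes called at 0.5x became 8 within day 1, 0 within day 2, 1 with only the groups compared and 0 without control replicates 1 and 2, and 1 to 14 without single arrays (14 without control replicate 4, 7 without control replicate 3), while 10 had an unadjusted p under 0.05 in the limma fit of all arrays. At 0.5x, 1371 of all 38802 kept probes were higher and 2217 lower in the fit of all arrays. In the same limma fit 11961 of them had an unadjusted p under 0.05. Without control replicate 4, 3540 probes were higher and 6064 lower, and without control replicate 1 the numbers were 585 and 611. Without control replicate 3, 2599 were higher, and the number lower also rose. These rises in calls were therefore not limited to the subunit genes. The 0.5x median of the set, 0.17, was -0.0289 without control replicates 1 and 2. The 3 genes lower at 1x than at 0.5x became 0 with the slide as a block, 0 with the matrix in either form and 1 within day 2, and 0 to 3 without single arrays. Over all kept probes, 674 were higher and 907 lower in the fit of all arrays, and 284 and 443 with the slide as a block. With the matrix alone 0 of 36346 probes passed in this comparison, so no gene could keep a call there. With the matrix and that block 307 probes were higher and 497 lower. The median between the concentrations, -0.11, was 0.0940 with the slide as a block, 0.0940 with the matrix and that block and 0.11 within day 1. The 8 genes whose 1x effect differed between days became 3 with only the groups compared, and 2 to 9 without single arrays (2 without control replicate 1 or 1x replicate 4, 4 without 1x replicate 5, 5 without 1x replicate 3). For all of these changes the cause was not tested, beyond the smaller number of arrays where some were left out.

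Among scalings, ndufa12 lost its 1x call after quantile normalization and ndufa3 after centring on the array median. Normexp moved the 1x median of all probes from -0.09 to -0.20, and array-median centring moved the 0.5x median of all probes from -0.11 to -0.00. Same-numbered arrays of different groups correlated at -0.22 to 0.49, and some of these pairs also shared a slide or a scan day. Whether same-numbered samples share more than that is not in the labels and was not tested. With the replicate number as a block 10, 2 and 3 subunit genes were called in the 3 comparisons, with medians of -0.01, 0.12 and -0.11, and atp5mc3a lost its call (0.31, adjusted p = 0.0759).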
